A study of Homo sapiens with 6 samples.

Results

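The cytosolic chaperones and the subunits of the chaperonin TRiC were examined in H661 cells, an established line from a human large cell carcinoma of the lung, after knockdown of SALL4. The members are 34 genes named by symbol, and probe sets whose annotation gives exactly 1 symbol were available for 32 of them, of 18404 genes in all. AHSA1, an activator of the HSP90 ATPase, and HSF2, a heat shock transcription factor, were not analysed here. RNA was hybridised to 6 Affymetrix arrays, 3 of cells that received a SALL4 shRNA (SALL4-sh) and 3 of cells that received a scrambled shRNA (Scr-sh). The labels give 10% serum for all 6 samples, which differs from the serum percent that the paper's methods give for H661. Both hairpins were delivered by lentivirus, 1 sequence against SALL4 and 1 control sequence in 1 cell line, so an effect of the hairpin other than on SALL4 cannot be told apart from an effect of SALL4. How long after transduction the RNA was taken is not stated in the labels or methods. The label "cytosolic" holds for most members by their known location, but HSPA9, HSPD1 and HSPE1 encode chaperones of the mitochondrial matrix and HSF1 encodes a transcription factor.

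Chaperones bind proteins that are not yet folded, or that have lost their fold, and release them in cycles driven by ATP. TRiC is a barrel of stacked rings built from 8 related subunits, TCP1 and CCT2 to CCT8 with CCT6A as the common form of CCT6, and it encloses actin, tubulin and other proteins while they fold. HSP70 proteins take up client proteins delivered by J-domain proteins and are reset by nucleotide exchange factors such as HSPH1 and the BAG family, and HSP90 receives kinases and receptors from HSP70 with the help of cochaperones such as STIP1, CDC37 and PTGES3. Many of these genes are induced through heat shock elements in their promoters, which HSF1 binds. Cancer cells are known for high levels of HSP90 and HSP70.

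The deposited values are linear normalized intensities with a floor of 8. They were compared as log2 values with limma, the brightest probe set standing for a gene, among the 13803 genes above the 25th percentile of mean log2 intensity. Fold changes are SALL4-sh over Scr-sh, and a gene was called at an adjusted p under 0.05. SALL4 itself had intensities of 33.6, 31.9 and 26.5 in SALL4-sh, against 126, 104 and 130.2 in Scr-sh. Its log2 fold change of -1.97 passed the limma test (adjusted p = 0.000644), and the groups were far apart. Of 6 epithelial markers 1 was called, CDH1, which encodes E-cadherin, where 11.5% of all genes tested were called in either direction. CDH1 had 17.2, 16.1 and 17.3 in SALL4-sh, against 10.5, 8 and 8.68 in Scr-sh, with 1 value at the floor. Whether it has a part in the chaperone differences was not tested. EPCAM, an adhesion protein of epithelial cells, stood at 843 to 1113 in SALL4-sh and 589.8 to 898 in Scr-sh, whereas KRT7, KRT8 and KRT19, keratins of simple epithelia, did not exceed 15.3 on any array. KRT18, another such keratin, stood at 28.8 to 57.0 in SALL4-sh and 41.5 to 76.7 in Scr-sh and was not called (log2 fold change -0.44). VIM, the intermediate filament of mesenchymal cells, stood at 940.5 to 1142 in SALL4-sh and 1117 to 1615 in Scr-sh. Of the blood cell markers, PTPRC and CD3E were at the floor on all 6 arrays and none of the 3 tested was called. The members are bright genes, with a median percentile of 95.2 in mean log2 intensity over all genes, and 27 of 32 stood above the 75th percentile. HSPB8, a small heat shock protein, stood at 8 on all 6 arrays and was not tested, which left 31 members.

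Of these 31 members, 10 were higher and 1 was lower in SALL4-sh, a share of 32.3% higher, where 5.95% of all genes tested were called higher and 5.54% lower. In either direction the share of all genes was 11.5%. Among genes above the 50th percentile of brightness, where the same members were called, the shares were 8.97% higher, 8.04% lower and 17% in either direction. The genes that rose were TCP1, CCT2, CCT5 and CCT6A of TRiC, HSP90AA1 and its cochaperone PTGES3, HSPA14 and HSPH1 of the HSP70 family, and the J-domain genes DNAJA2 and DNAJB6. Their ratios ran from 1.55 to 2.43. The gene that fell was HSPB1, which encodes HSP27, at a ratio of 0.513. The other 20 did not pass. Of those, 6 had every SALL4-sh value above every Scr-sh value, 3 had every SALL4-sh value below, and 11 overlapped. Over the 31 members tested, 16 had groups apart with SALL4-sh higher and 4 with SALL4-sh lower, where 15.7% of all genes tested were apart higher, 13.1% apart lower and 28.9% either way. The arrays measured RNA of whole cultures, so a lower level in each cell and fewer cells that carry the RNA cannot be told apart. Nothing in the labels ties the 3 arrays of a group to separate cultures, so the spread that the p-values rest on may be technical. An exact two-sided permutation test of 3 against 3 arrays cannot go below p = 0.1, which is its value for each of the 11 called members.

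**Figure D1:**
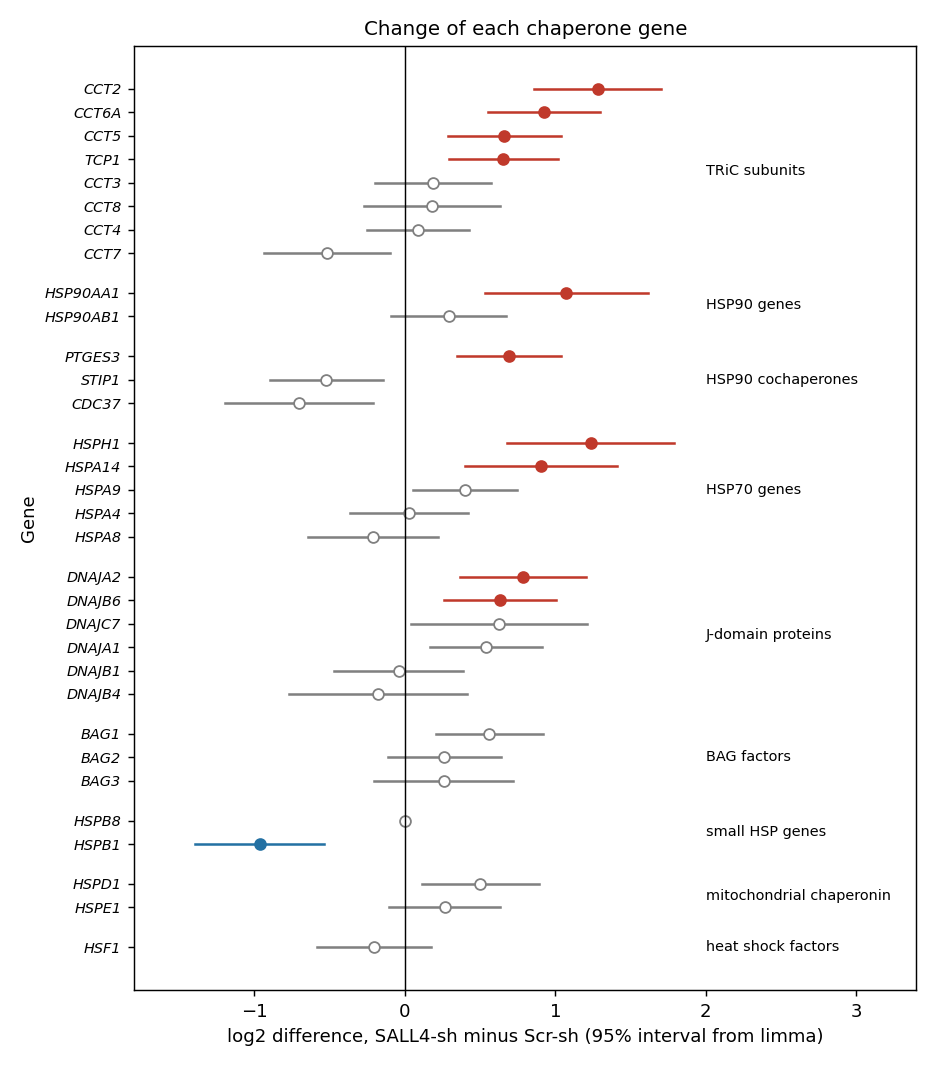
Log2 difference (SALL4-sh minus Scr-sh) of each of the 32 members, grouped by role, with 95% intervals from limma. Filled red points were called higher and the filled blue point lower at an adjusted p under 0.05, and open points were not called. CCT2 lies farthest to the right at 1.28 and HSPB1 farthest to the left at -0.96, and HSPB8, at the floor throughout, has no interval.

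The arrays of a group differed in chaperone level. Scr-sh replicate 2 was the highest of the 3 Scr-sh arrays for 20 of 31 members and for 6 of the 8 TRiC subunits, where it was the highest for 39.8% of all genes tested. SALL4-sh replicate 1 was the lowest of the 3 SALL4-sh arrays for 21 of 31 members, against 32.2% of all genes. Without Scr-sh replicate 2, 8 members were higher (HSPA14 and DNAJB6 lost the call) and HSPB1 was lower, where 8.08% of all genes were higher and 6.01% lower. Leaving out any other array left 2 to 4 members higher, where 2.34% to 3.30% of all genes were higher. Over all 6 fits with an array left out, HSPH1 kept its call in 3 and DNAJA2 in 2. HSP90AA1 and HSPA14 kept theirs in 1 each. With 1 array left out, the median log2 fold change of the TRiC subunits ran from 0.35 (without Scr-sh replicate 3) to 0.52 (without Scr-sh replicate 2). Without the filter on weak genes, 3 of the 32 members were higher, CCT2, CCT6A and PTGES3, and none was lower, where 1.18% of 18404 genes were higher, 1.33% lower and 2.51% either. With only those genes left out that stood at the floor throughout, an alternative added after seeing the data, 9 members were higher and 1 lower, where 4.36% of all genes were higher. HSP90AA1 (adjusted p = 0.0525 from limma) and HSPA14 (adjusted p = 0.0635 from limma) then lost the call, and BAG1 gained it.

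The promoter windows of 4 members are shown here, since the heat shock element is the sequence through which HSF1 acts on this gene family and the printed pairs include members that rose and members that did not. A window is the RefSeq sequence (GRCh38.p14) of 250 bases before to 50 bases after an annotated start, written 5′ to 3′ on the strand of the gene, and capitals mark the 3-unit heat shock element (GAA, any 2 bases, TTC, any 2 bases, GAA, or its reverse complement). HSP90AA1 and DNAJB6 rose, and HSP90AB1 and HSPA8 were not called.
HSP90AA1, chr14:102086995-102087294, minus strand: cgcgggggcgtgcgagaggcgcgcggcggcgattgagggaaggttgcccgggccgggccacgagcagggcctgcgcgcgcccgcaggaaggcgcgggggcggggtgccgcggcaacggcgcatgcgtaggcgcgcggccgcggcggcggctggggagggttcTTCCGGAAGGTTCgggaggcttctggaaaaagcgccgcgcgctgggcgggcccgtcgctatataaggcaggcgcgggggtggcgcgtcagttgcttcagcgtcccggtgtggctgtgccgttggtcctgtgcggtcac
DNAJB6, chr7:157336754-157337053, plus strand: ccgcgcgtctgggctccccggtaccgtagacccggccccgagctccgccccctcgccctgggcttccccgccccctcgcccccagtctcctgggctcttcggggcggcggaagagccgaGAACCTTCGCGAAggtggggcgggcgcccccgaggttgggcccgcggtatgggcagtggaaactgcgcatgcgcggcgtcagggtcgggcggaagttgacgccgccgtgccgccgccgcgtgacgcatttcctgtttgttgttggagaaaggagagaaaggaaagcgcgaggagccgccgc
HSP90AB1, chr6:44247693-44247992, plus strand: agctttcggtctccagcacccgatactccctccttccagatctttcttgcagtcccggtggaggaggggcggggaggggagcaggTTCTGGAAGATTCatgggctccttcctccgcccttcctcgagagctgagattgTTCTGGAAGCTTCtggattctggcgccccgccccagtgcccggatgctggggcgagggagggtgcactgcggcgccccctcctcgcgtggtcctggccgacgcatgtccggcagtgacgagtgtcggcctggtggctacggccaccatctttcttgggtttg
HSPA8, chr11:123062087-123062386, minus strand: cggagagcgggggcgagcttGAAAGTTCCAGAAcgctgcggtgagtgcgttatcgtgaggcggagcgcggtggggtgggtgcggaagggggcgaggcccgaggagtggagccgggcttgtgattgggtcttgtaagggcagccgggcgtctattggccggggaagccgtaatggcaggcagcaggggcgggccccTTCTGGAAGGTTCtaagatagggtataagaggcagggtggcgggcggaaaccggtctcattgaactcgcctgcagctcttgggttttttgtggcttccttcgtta

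Several genes have more than 1 annotated start, and 40 windows of 29 members were searched, a gene counting as a holder if any of its windows held the element. The other window of HSP90AA1 and the other 2 of HSP90AB1 did not hold it. The element began 88 bases before the printed start of HSP90AA1 and 131 bases before that of DNAJB6. In HSP90AB1 it was found at 165 and 112 bases before the printed start, and in HSPA8 at 230 and 55 bases before it. Of the 29 members, 6 (20.7%) held the 3-unit element, against 0.608% of 27303 genes with a window. Many of these genes are known to be induced through this element, so the higher share goes with the choice of members and is no result of the arrays. Besides the 4 printed, the holders were DNAJA1 and HSPD1, neither of them called. Both had every SALL4-sh value above every Scr-sh value, as 15.7% of all genes tested had, while HSP90AB1 and HSPA8 overlapped. By call, the element stood in 2 of 8 members that rose and in 4 of 20 that were not called or not tested. With an array left out, HSP90AA1 kept its call in 1 of 6 fits and DNAJB6 in 0, so this split rests on unstable calls. Whether the element goes with the direction of change was not tested. None of the 7 TRiC subunits with a window held it (CCT6A had none to search). The shorter 2-unit forms (GAA and TTC in either order, 2 bases apart), which also lie within the longer element, occurred in 16 of the 29 members and in 16.2% of all genes. A match of letters is not a site bound by a factor, and its absence from this window says nothing of the factor.

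Of the 8 TRiC subunits, 4 rose, none fell and 4 were not called, where 5.95% of all genes tested rose and 5.54% fell. Among genes above the 50th percentile of brightness, where all 8 lie, the shares were 8.97% and 8.04%. Of the subunits not called 1, CCT7, was lower at an unadjusted p under 0.05, by limma and by the alternative test alike. The median log2 fold change was 0.42 over the 8, against 0.02 over all genes tested, but no subunit lay near that median. The 4 that rose stood at 0.66 to 1.28, CCT3, CCT4 and CCT8 at 0.09 to 0.19, and CCT7 at -0.52. CCT2, the beta subunit, had intensities of 428, 498 and 509 in SALL4-sh, against 179, 246 and 172 in Scr-sh. This was the largest ratio of the members, 2.43 (log2 fold change 1.28, 95% interval 0.86 to 1.70, adjusted p = 0.00387 from limma), and the groups were far apart. CCT6A, the zeta subunit, had 383, 437 and 408 in SALL4-sh, against 198, 251 and 201 in Scr-sh, a ratio of 1.90 (adjusted p = 0.00892 from limma). CCT2 and CCT6A were the 2 members that also passed when any 1 of the 6 arrays was left out. Of the 11 other settings, both passed in the 10 run with limma, no filter included. Neither passed the alternative test after adjustment, which does not pool the spread over genes.

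TCP1, the alpha subunit, was the brightest of the 8, with 1331, 1513 and 1364 in SALL4-sh, against 809, 993 and 875 in Scr-sh. Its ratio was 1.58, the same as that of CCT5, the epsilon subunit, which had 767, 813 and 861 in SALL4-sh, against 464, 604 and 484 in Scr-sh. The adjusted p-values were 0.0301 for TCP1 and 0.0342 for CCT5 (limma). Neither group overlapped, but both genes lost the call when any array other than Scr-sh replicate 2 was left out.

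CCT3, the gamma subunit, had 457, 438 and 459.6 in SALL4-sh, against 385, 474 and 342 in Scr-sh, so that the highest Scr-sh value exceeded every SALL4-sh value. CCT4, the delta subunit, overlapped as well, at 218 to 237 in SALL4-sh and 199.8 to 226 in Scr-sh. Its log2 fold change was 0.09, with a 95% interval of -0.25 to 0.43. CCT8, the theta subunit, lay at 126 to 188 in SALL4-sh and 117 to 158 in Scr-sh, with an interval of -0.27 to 0.63. CCT7, the eta subunit, went the other way, with 126, 155 and 164 in SALL4-sh, against 251, 181 and 208 in Scr-sh. All 3 SALL4-sh values of CCT7 were below the Scr-sh values, with 0.699 times the level (log2 fold change -0.52, 95% interval -0.94 to -0.10, adjusted p = 0.114 from limma).

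The difference between the outermost subunits was taken within each array. Log2 CCT2 minus log2 CCT7 was 1.76, 1.68 and 1.63 in SALL4-sh, against -0.49, 0.44 and -0.27 in Scr-sh. The means were 1.69 ± 0.06 in SALL4-sh and -0.11 ± 0.49 in Scr-sh (SD, n = 3 each), a shift of 1.80. The groups did not overlap (exact two-sided permutation test, p = 0.1, the smallest possible, and again 0.1 when adjusted over the 3 pairs). That outcome was fixed, since CCT2 and CCT7 each had their groups apart and in opposite directions, so the test decides nothing here. All 3 pairs taken in this way were chosen after their values were seen. Levels of different probe sets are not on a common scale, and the difference is read only as unequal change.

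**Figure D2:**
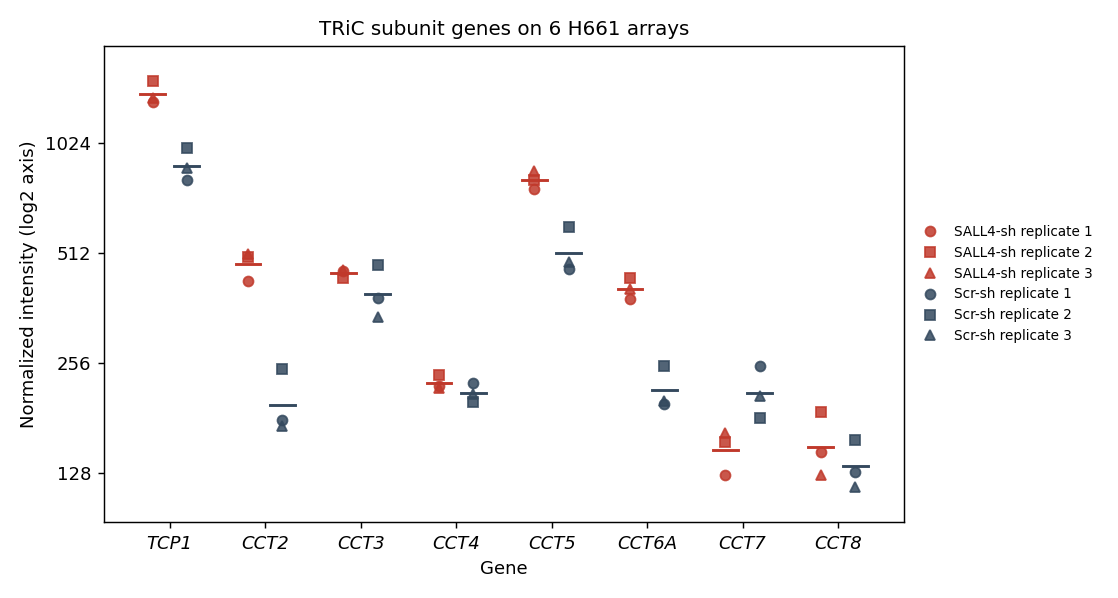
Normalized intensity (log2 axis) of the 8 TRiC subunit genes on each array, SALL4-sh in red to the left of Scr-sh in grey. Symbols are replicates 1 to 3, which carry no order, and short lines are means of the log2 values. The groups are apart for TCP1, CCT2, CCT5 and CCT6A, with SALL4-sh higher, and for CCT7, with SALL4-sh lower, and they overlap for CCT3, CCT4 and CCT8.

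HSP90AA1, the stress-inducible HSP90, had intensities of 1317, 1584 and 1512 in SALL4-sh, against 535, 1023 and 617 in Scr-sh. The ratio was 2.10 (log2 fold change 1.07, adjusted p = 0.0219 from limma), and Scr-sh replicate 2 lay well above the other 2 Scr-sh arrays. HSP90AB1, the constitutive form, had 832, 1061 and 917 in SALL4-sh, against 849.7, 752 and 692 in Scr-sh. Here the groups overlapped, and the log2 fold change was 0.29 with a 95% interval of -0.09 to 0.67. Within an array, log2 HSP90AA1 minus log2 HSP90AB1 was 0.66, 0.58 and 0.72 in SALL4-sh, against -0.67, 0.44 and -0.16 in Scr-sh. The difference between the 2 genes shifted by 0.78 on the log2 scale, with groups that did not overlap (exact two-sided permutation test, p = 0.1, the smallest possible) although Scr-sh replicate 2 came close. HSP90AA1 alone had its groups apart and this pair too was chosen after its values were seen, so the test decides nothing here.

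The 3 measured HSP90 cochaperones differed in direction. PTGES3, the cochaperone p23, which holds HSP90 in its ATP-bound state, had 819, 866 and 897 in SALL4-sh, against 494, 571 and 534 in Scr-sh. Its ratio was 1.62 (adjusted p = 0.0200 from limma), and it was the only member that passed in each of the 11 other settings, though it passed in 1 of the 6 fits with an array left out, that without Scr-sh replicate 2. STIP1, which bridges HSP70 and HSP90, had 110.2, 91.3 and 109 in SALL4-sh, against 131, 157 and 158 in Scr-sh. CDC37, which brings kinases to HSP90, had 59.7, 99.9 and 95.9 in SALL4-sh, against 142, 123 and 142 in Scr-sh. For both genes every SALL4-sh value was below every Scr-sh value, but neither passed. STIP1 had a log2 fold change of -0.52 and an adjusted p of 0.0794 (limma), and CDC37 had -0.70 and 0.0719.

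Of the HSP70 family, HSPH1 and HSPA14 rose and 3 genes were not called, where 5.95% of all genes tested rose. HSPH1, or HSP110, a nucleotide exchange factor for HSP70, had 454, 549.6 and 504 in SALL4-sh, against 178, 319 and 170.3 in Scr-sh, a ratio of 2.35 (log2 fold change 1.23, adjusted p = 0.0136 from limma). As for HSP90AA1, Scr-sh replicate 2 was the highest Scr-sh array by far, and without it the log2 fold change of HSPH1 was 1.52. HSPA14, which works with a J-domain partner at the ribosome, was dim, with 27.9, 37.9 and 30.4 in SALL4-sh, against 13.3, 16.3 and 22.7 in Scr-sh (log2 fold change 0.90, adjusted p = 0.0315 from limma). HSPA8, the constitutive HSC70, had 719, 971 and 721 in SALL4-sh, against 868, 1093 and 823 in Scr-sh. Its groups overlapped, with a 95% interval of the log2 fold change of -0.64 to 0.22. The shift of HSPH1 relative to HSPA8 within an array was 1.44 on the log2 scale, without overlap (exact two-sided permutation test, p = 0.1, the smallest possible). HSPH1 alone had its groups apart and the pair was chosen after its values were seen, so the test decides nothing here. HSPA4, a relative of HSPH1, was near equal at 326 to 394 in SALL4-sh and 322 to 421 in Scr-sh, and its log2 fold change of 0.03 had an interval of -0.36 to 0.42.

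None of the 3 chaperones of the mitochondrial matrix passed the test, and each had its groups apart with SALL4-sh above Scr-sh, as 15.7% of all genes tested had. HSPA9 and HSPD1 passed in eBayes with trend and robust (adjusted p = 0.0331 and 0.0175, limma). HSPA9, the mitochondrial HSP70, had 800.2, 888 and 835 in SALL4-sh, against 633, 685 and 595 in Scr-sh (log2 fold change 0.40, adjusted p = 0.135 from limma). HSPD1, or HSP60, had 1219, 1629 and 1550.3 in SALL4-sh, against 1014, 1111 and 965 in Scr-sh (log2 fold change 0.50, adjusted p = 0.101 from limma). HSPE1, the HSP10 lid of the HSP60 chamber, lies head to head with HSPD1 in the genome, and 204 bases of their promoter windows are shared. Its intensities were 340.3, 348 and 374 in SALL4-sh, against 254, 317 and 317 in Scr-sh, a log2 fold change of 0.27.

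Among the 6 J-domain genes, DNAJA2 and DNAJB6 rose and none fell, where 5.95% of all genes tested rose and 5.54% fell. DNAJA2, a general partner of cytosolic HSP70, had 327, 419 and 477 in SALL4-sh, against 219, 260.4 and 223 in Scr-sh, a ratio of 1.72 (adjusted p = 0.0270 from limma). DNAJB6, known to hold back aggregation of polyglutamine proteins, had 246, 216 and 289 in SALL4-sh, against 159.5, 162 and 159 in Scr-sh (ratio 1.55, adjusted p = 0.0390 from limma). It was the least stable call, lost with any 1 array left out and kept in 4 of the 11 other settings. Its dimmer probe set had 66.4, 67.9 and 60.4 in SALL4-sh, against 39.4, 76.0 and 29.3 in Scr-sh, with overlap through Scr-sh replicate 2. DNAJA1, close in sequence to DNAJA2, had 359.6 to 462 in SALL4-sh and 269 to 307 in Scr-sh, without overlap (log2 fold change 0.54, adjusted p = 0.0707 from limma). DNAJB1, the main inducible HSP40, lay at 70.4 to 94.8 in SALL4-sh and 69.3 to 96.8 in Scr-sh, and its log2 fold change was -0.04 (95% interval -0.47 to 0.39). DNAJB4 and DNAJC7 overlapped between the groups as well, with log2 fold changes of -0.18 and 0.63, and the interval of DNAJC7 was 0.04 to 1.21.

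Of the small heat shock proteins, HSPB1 was the 1 member that fell. HSP27, its product, binds unfolding proteins without ATP and associates with actin filaments. Its intensities were 108, 85.9 and 106 in SALL4-sh, against 241, 177 and 171 in Scr-sh, with no overlap. With a log2 fold change of -0.96 it passed (adjusted p = 0.0134 from limma), and the call was lost only without SALL4-sh replicate 2 among the 6 fits with an array left out (adjusted p = 0.0567 from limma). The BAG factors were not called. BAG1 had 12.9, 13.8 and 13.5 in SALL4-sh, against 9.77, 8 and 9.55 in Scr-sh, where 1 value stood at the floor, so that its log2 fold change, 0.56, is limited by the floor (adjusted p = 0.0510 from limma). BAG2, an inhibitor of the ligase CHIP, had a log2 fold change of 0.26, and BAG3, which links HSP70 to autophagy and is itself induced by heat shock, also 0.26 with a 95% interval of -0.20 to 0.72. HSF1 had 44.2, 41.1 and 41.9 in SALL4-sh, against 50.8, 55.6 and 41.3 in Scr-sh, a log2 fold change of -0.20 with an interval of -0.58 to 0.18. Further HSP70 genes with strong heat induction, HSPA1A and HSPA1B, had no probe set of 1 symbol and were not used here.

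**Figure D3:**
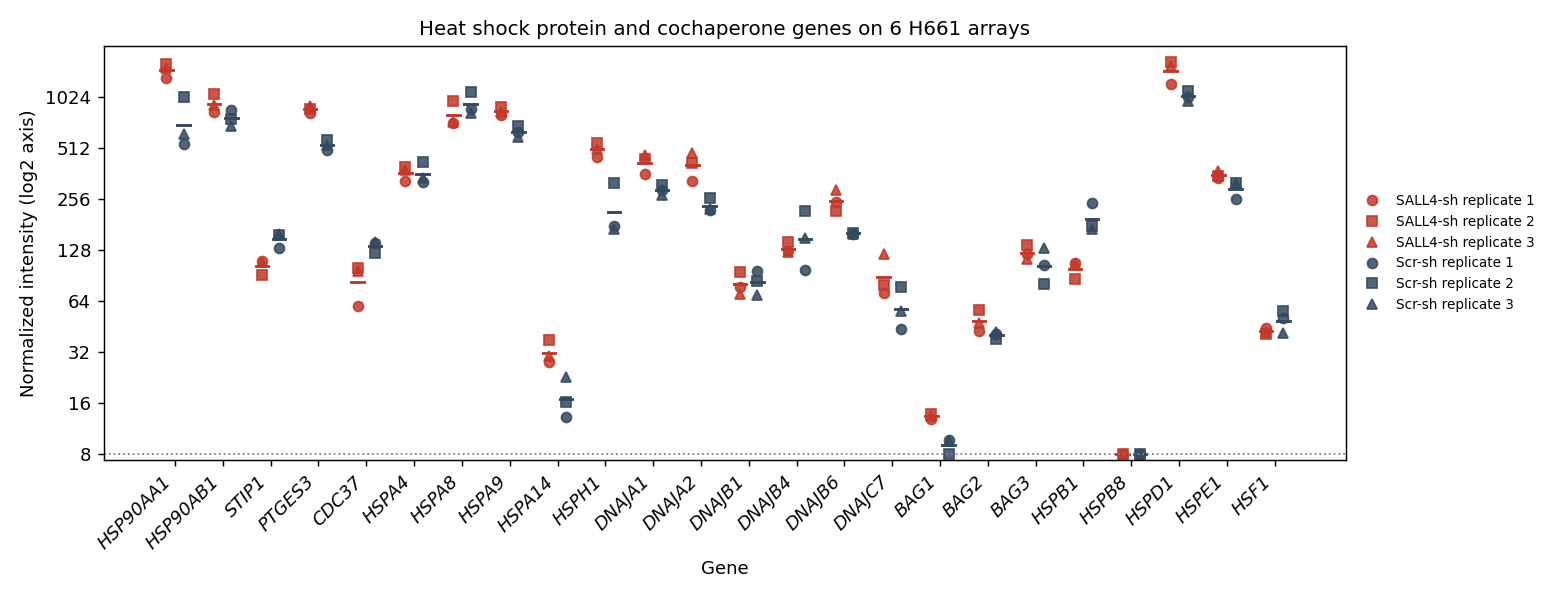
Normalized intensity (log2 axis) of the 24 other members on each array, SALL4-sh in red to the left of Scr-sh in grey, with means of the log2 values as short lines. The dotted line is the floor of 8, at which HSPB8 stands throughout and BAG1 on 1 Scr-sh array. The square of Scr-sh replicate 2 lies nearer to the SALL4-sh points than the other Scr-sh symbols for HSP90AA1 and HSPH1, at 1023 and 319.

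Of the genes that work with TRiC, 1 of 9 prefoldin and regulator genes and 1 of 12 actins and tubulins fell and none rose, where 5.54% of all genes fell and 5.95% rose. Prefoldin hands unfolded actin and tubulin to TRiC, and PFDN1, one of its subunits, had 40.3, 42.7 and 47.0 in SALL4-sh, against 135, 100.1 and 98.7 in Scr-sh. It fell by 1.35 on the log2 scale (adjusted p = 0.00266 from limma). Of the 9 tested genes of prefoldin and TRiC regulation, it was the 1 that fell and none rose, with a list median of 0.01 over the 10 measured. VBP1, another prefoldin subunit, named after its value was seen, stood just outside the threshold in the other direction (log2 fold change 0.59, adjusted p = 0.0501 from limma). Of 12 actins and tubulins, the main clients of TRiC, ACTB fell to 935 ± 26.4 in SALL4-sh, against 1459 ± 204 in Scr-sh (SD, n = 3 each, adjusted p = 0.0396 from limma). That list had a median of 0.28. Without the filter ACTB lost the call (adjusted p = 0.0881 from limma) and TUBB4B, a beta tubulin, gained it with SALL4-sh higher (log2 fold change 0.47, adjusted p = 0.0431 from limma).

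Of 16 further cochaperones of HSP70 and HSP90, 3 rose and none fell, where 5.95% of all genes rose. SUGT1, which joins HSP90 to client receptors and the kinetochore, had 297, 376 and 337 in SALL4-sh, against 157, 182 and 167 in Scr-sh (log2 fold change 0.99, adjusted p = 0.00622 from limma). FKBP4, the immunophilin of steroid receptor complexes, rose by 0.66 on the log2 scale (adjusted p = 0.0409, limma). HSBP1, which binds HSF1 and restrains it, rose by 0.80 (adjusted p = 0.0216, limma). Without the filter SUGT1 kept its call and FKBP4 and HSBP1 lost theirs (adjusted p = 0.112 and 0.0906, limma). The list as a whole had a median of 0.01. Neither the 9 other HSP70 genes tested nor the 8 organelle chaperones held a called gene, though without the filter HSP90B1, the HSP90 of the endoplasmic reticulum, was called higher (log2 fold change 0.36, adjusted p = 0.0432 from limma). Of 29 other J-domain genes, none rose and 1 fell, where 5.54% of all genes fell. The gene that fell was DNAJC19, a partner of the mitochondrial import motor. Its arrays varied widely, with 159, 41.7 and 31.1 in SALL4-sh, against 329, 301 and 611 in Scr-sh (log2 fold change -2.73, adjusted p = 0.0132 from limma, and 0.174 without the filter).

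**Figure D4:**
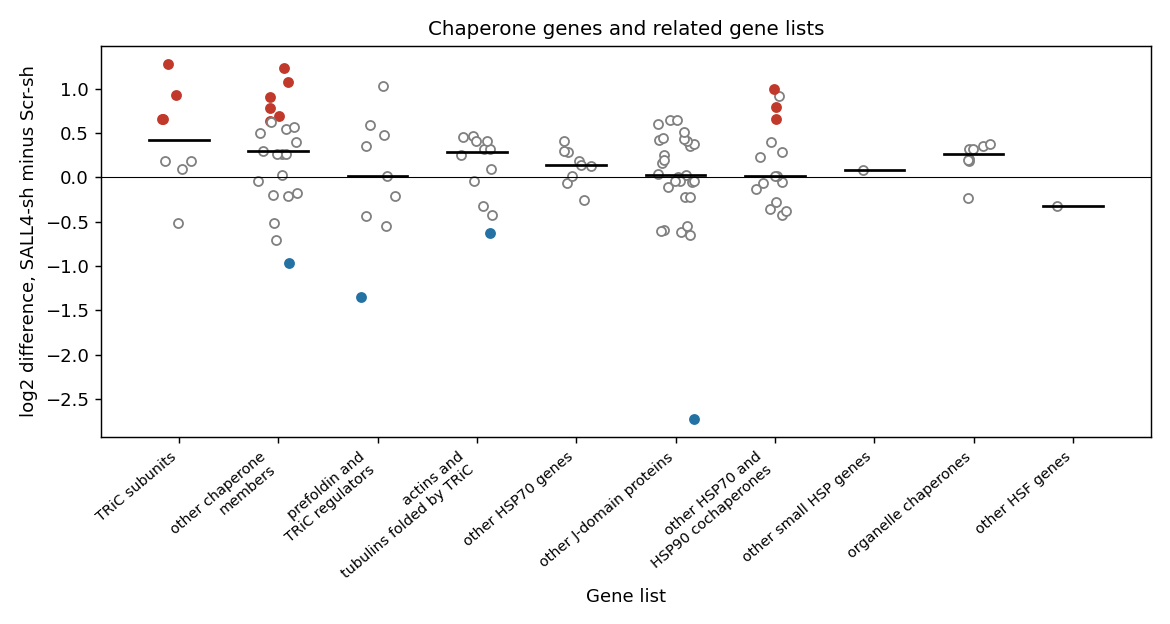
Log2 difference (SALL4-sh minus Scr-sh) of every tested gene of the TRiC subunits, the other members and 8 related gene lists. Red points were called higher, blue points lower, open points were not called, and black lines are medians over the tested genes. The medians are 0.42 for TRiC and 0.29 for the other members tested. Those of the actins and tubulins (0.28) and the organelle chaperones (0.26) lie near the latter, and the other related lists run from -0.32 to 0.14. The lowest point is DNAJC19 at -2.73.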

How the data were processed

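Total RNA of 6 H661 samples (5 µg each, according to the labels) was hybridised to Affymetrix arrays. The table the authors deposited holds intensity values of 32321 probe sets, normalized, on a linear scale with a floor of 8, at which 38.8% to 40.4% of an array's values stood. RMA is named in the submitters' processing notes, without a version. Gene names came from the platform's annotation. Of the probe sets, 19158 had 1 symbol, 1388 had several and were not used, and 11775 had none listed. All 32 member symbols matched the RefSeq table by gene identifier. Log2 values correlated at 0.969 to 0.980 within groups and at 0.955 to 0.965 between them, and no arrays were identical. Arrays have no read depth, and their number limits the precision.

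The comparison used limma 3.58.1 under R 4.3.3 (lmFit and eBayes, Benjamini-Hochberg over all genes tested). Genes not above the 25th percentile of mean log2 intensity (an intensity of 8.28) were left out. In limma the prior had 5.33 degrees of freedom with this filter, 2.35 with only the 3893 genes at the floor throughout left out, and 0.422 with no filter. An earlier analysis of these data had used no filter, which is an alternative here. The procedure was tested on simulated data, and the outcome is not given here. The simulated noise was independent between genes and arrays, so shifts shared by many genes of an array were not covered. The members, lists, filter and tests were chosen with earlier results of these data known. All members are named, with SALL4 and up to 4 called genes of each related list. Probe sequences were not examined, and whether probes also bind pseudogene transcripts was not tested. Alternatives were no filter and a 50th percentile filter, median centring, cyclic loess, quantile normalization, array weights, eBayes with trend and robust, each array left out, a block on replicate number, a one-way ANOVA (the test the study names for its arrays, here with the same adjustment), and averaging the probe sets of a gene. Leaving out only the genes at the floor was added after seeing the data.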

Additional observations from a re-analysis of the deposited data

How the results depend on the processing

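The members called higher (10) and lower (1) and the TRiC subunits called higher (4) depended on the filter and on the number of arrays. Without the filter they were 3, 0 and 2, and with the one-way ANOVA, which does not pool the spread over genes, 1, 0 and 0 after adjustment (14, 4 and 4 at an unadjusted p under 0.05). Cyclic loess gave 7 higher, 2 lower (HSPB1 and STIP1) and 2 TRiC subunits higher, array weights gave 12 higher and 2 lower (HSPB1 and CDC37), and eBayes with trend and robust gave 14 higher (BAG1, DNAJA1, HSPA9 and HSPD1 gained) and 1 lower. With an array left out, 2 to 8 members were higher, 0 to 1 lower and 2 to 4 TRiC subunits higher. No TRiC subunit was lower after adjustment in any of these fits. The median log2 fold change was 0.42 for TRiC subunits and ran from 0.32 (cyclic loess) to 0.52 (without Scr-sh replicate 2). For the other members it was 0.28 and ran from 0.20 (cyclic loess) to 0.37 (without SALL4-sh replicate 1). The SD of these medians over the arrays of a group was 0.149 and 0.100. Directions turned only for members not called: CCT4 under cyclic loess (-0.0087), HSPA4 under cyclic loess (-0.076), quantile normalization (-0.0092) and with an array left out (-0.051 to 0.14), DNAJB1 under array weights (0.013) and with an array left out (-0.17 to 0.074), and DNAJB4 with an array left out (-0.47 to 0.10, above 0 without Scr-sh replicate 2). HSPB8 had no fit, and members below the stricter filter were not tested there. Over all genes, 821 higher and 764 lower became 218 and 244 without the filter, 113 and 144 by the ANOVA, and 323 to 1115 and 383 to 830 with an array left out. The cause of these shifts was not tested. Replicate numbers were shared between groups, but deviations of same-numbered arrays correlated at 0.14, 0.11 and -0.00089, and not every array correlated best with its own number, so they were not taken as pairs. With the replicate block 9 members were higher, 1 was lower, and 4 TRiC subunits were higher. Signals near the floor of 8 limit HSPA14 and BAG1, and the called marker CDH1.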
